A study of Mus musculus with 22 samples.

Results

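The comparison set 4 libraries of sorted secretory progenitors (SecPDG) against 5 libraries of sorted tuft cells (Tuft), 9 of the 22 libraries in the series, and covered each of the 24421 genes in the count files. The libraries were chosen by their labelled cell type alone. Many of the genes named below were chosen by their level or change, by the rule given with the processing. All 9 came from the colon crypts of wild type male C57BL/6N mice aged 5 to 7 weeks, with no transgene, treatment or time course. Dissociated cells were sorted for the epithelial antigen Epcam and against the endothelial antigen Cd31 and the leukocyte antigen Cd45. The labels give the SecPDG gate as high Cd44 with medium Cd24 and Ckit, whereas the study's text gives its Cd44 as medium. The study describes the gated cells as secretory progenitors and deep crypt secretory cells for the most part, with perhaps a few goblet cells. The Tuft gate took Ckit-positive cells with high Cd24. Each sample held at least 2500 cells from independent sorts, pooled over mice as needed, so a library is an average over animals and over any cell states that shared a gate. The populations were sorted side by side, so that "rose" and "fell" below mean higher or lower in Tuft than in SecPDG, and no cell was followed from one state to the other.

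Secretory progenitors of the crypt are proliferating cells that have left the stem state, turn on Atoh1 and fill their endoplasmic reticulum (ER) with mucins and other secreted proteins. Tuft cells are rare chemosensory cells of the same epithelium. They depend on the POU-domain transcription factor Pou2f3, bear a tuft of long microvilli, and carry a signalling chain shared with taste receptor cells, in which a G protein activates phospholipase C, calcium leaves the ER and the cation channel Trpm5 opens. They are also known as a source of the cytokine Il25, of prostaglandins and cysteinyl leukotrienes and of acetylcholine.

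Depth was 15314543 to 18628984 reads counted on genes in SecPDG and 9930648 to 20892532 in Tuft. Levels are given as normalised counts, that is counts scaled by library size and the trimmed mean of M values (TMM), in the order of replicates 1 to 4 for SecPDG and 1 to 5 for Tuft. The scaling is within a gene and not per length, so levels are compared between libraries and not between genes. A class of 1567 genes was taken as background (olfactory, vomeronasal and trace amine receptors, keratin associated proteins and beta defensins). It took 47 to 149 CPM in SecPDG and 184 to 1518 in Tuft, the lowest being Tuft replicate 5. Some members of these families may be expressed in the sorted cells, which was not tested, so the background values below are estimates. Reads outside genes made up 40.9 to 46.8% of uniquely placed reads in SecPDG, 59.5 to 68% in Tuft replicates 1 to 4 and 43.4% in Tuft replicate 5. Background therefore moved with the comparison and its part in the changes of genes at low counts was not tested, beyond leaving out those genes whose estimated background passed 20% of their mean. SecPDG replicate 2, with a TMM factor of 0.62 against 0.76 to 0.94 in the other 3, also stood apart.

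The tuft label was borne out by its markers. The summed level of the 9 measured tuft markers was 1024, 879, 1519.7 and 1108 in the SecPDG libraries and 57813, 31896, 55342, 85980 and 54202 in the Tuft libraries, 50.4-fold higher on average. The 8 goblet markers separated the groups less: they summed to 726303, 3071540, 730139 and 1232931 in SecPDG and 1095409, 1003486, 871758, 720549 and 1072280 in Tuft, so that the ranges overlapped. Goblet transcripts took 4.65 to 13.8% of the counts in the SecPDG libraries and 5.58 to 8.01% in the Tuft libraries. Muc2 made up much of both sums, with a mean of 636062 of 1440228 in SecPDG and 675085 of 952696 in Tuft. The other 7 markers had negative log2 fold changes. In bulk samples such as these, fewer cells of a type and less RNA of that type per cell cannot be told apart. The 7 epithelial markers summed to 92705 to 137861 in SecPDG and 84522 to 140424 in Tuft. The 12 enteroendocrine markers summed to 1987 to 5985 in SecPDG and 4648, 1702, 3954, 3851 and 28206 in Tuft, with replicate 5 the highest. The 8 enterocyte markers summed to 10824 to 18556 in SecPDG and 5956 to 15659 in Tuft.

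Markers of cells outside the epithelium were near the bottom of the scale and mostly higher in Tuft. The 10 measured T and B cell markers summed to 5.9 to 55.9 in SecPDG and 0, 379, 651, 266 and 69.4 in Tuft, the 9 of mast cells and basophils to 0 to 51.9 and 42.7, 319, 332, 164 and 61.9. Tuft replicate 1 had no count on any T or B cell marker. The 8 stromal markers summed to 50.1 to 222 in SecPDG and 213 to 777 in Tuft, the 4 endothelial markers to 92.7 to 298 and 231 to 715, and the 6 markers of neurons and glia to 0 to 42.3 and 49.4 to 191. The 9 macrophage and dendritic cell markers summed to 1209 to 2223 in SecPDG and 469 to 1844 in Tuft, although 8 of the 9 had a positive log2 fold change. C1qa, the complement gene that made up most of that sum and the 1 with a negative value, had means of 1596 ± 439 (SD, n = 4) and 765 ± 529 (SD, n = 5).

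**Figure D1:**
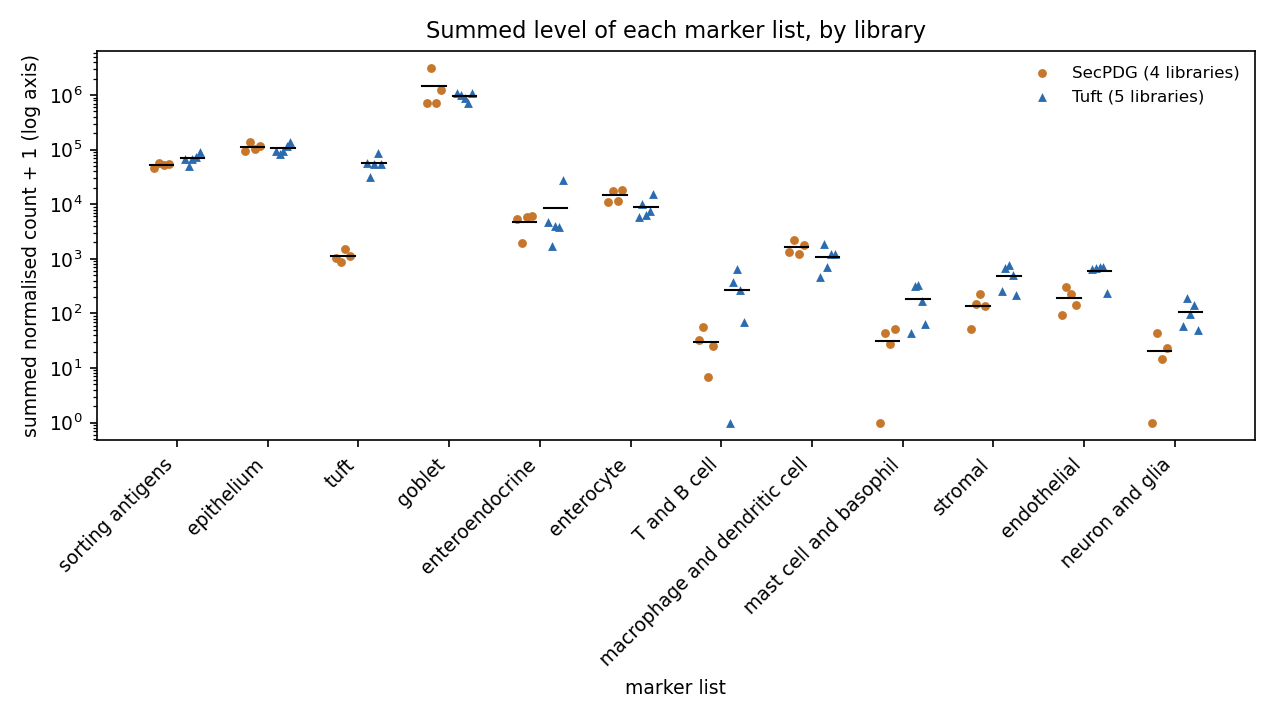
Summed normalised count of each marker list (log axis, 1 added) in the 4 SecPDG libraries (circles) and the 5 Tuft libraries (triangles), with the group mean as a line. The tuft markers separate the groups, the goblet markers are high in both, and the lists of cells outside the epithelium lie between 0 and 2223.

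Transcripts of the sorting antigens followed the gates in part. Cd24a, a mucin-like surface protein, stood at 13694, 12493, 15443 and 12995 in SecPDG and 33984, 23553, 37271, 38616 and 42824 in Tuft, and every Tuft library lay above every SecPDG library (log2 fold change 1.37 ± 0.43, adjusted p = 0.0546). It passed the test with the 9 libraries alone (adjusted p = 0.000107) and not with all 22. Kit, the receptor for stem cell factor, was at 6070, 9231, 6713 and 6782 in SecPDG and 10787, 6619, 9450, 10331 and 9583 in Tuft (log2 fold change 0.38 ± 0.34, adjusted p = 0.441). The groups overlapped although the gates separate them by its protein. Cd44, a hyaluronan receptor, was at 3865, 4176, 4418 and 4666 in SecPDG and 4600, 3425, 3954, 3879 and 5667 in Tuft (log2 fold change 0.01 ± 0.27, adjusted p = 0.988). The small difference changed sign without any 1 of SecPDG replicates 1 and 2 and Tuft replicates 1, 4 and 5. Epcam read 22827, 31249, 26825 and 30804 in SecPDG and 16581, 16552, 14463, 17363 and 29666 in Tuft (log2 fold change -0.56 ± 0.38, adjusted p = 0.3), where Tuft replicate 5 reached the SecPDG range. Pecam1, which encodes the Cd31 used to discard endothelial cells, was at 0, 16.2, 5.9 and 4.9 in SecPDG and 78.1, 69.4, 44.2, 86.3 and 24.3 in Tuft (log2 fold change 3.17 ± 0.94, adjusted p = 0.0472). Estimated background was 17.1% of its Tuft mean. Ptprc, the gene of the leukocyte antigen Cd45, is described with the kinases below.

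Across the 22781 genes that passed the filter on low counts, 189 were called higher in Tuft (0.830%) and 8 lower (0.0351%) by edgeR's quasi-likelihood test at an adjusted p below 0.01 and a mean of at least 50, with all 22 libraries in 1 fit that shares the spread. The fit of the 9 libraries alone called 305 higher (1.83%) and 248 lower (1.49%) of 16674 genes tested, so the share of calls that were higher went from 95.9% to 55.2%. The libraries did not overlap, with all of Tuft above, for 1858 genes (8.16%), and with all of SecPDG above for 735 (3.23%). Among genes with a mean of at least 50 the median log2 fold change was -0.18 under TMM, 0.02 under DESeq2's size factors, -0.0015 under upper quartile scaling and 0.12 under library totals, so a fold change here is to be read against that shift. Over all 22781 genes, low ones included, 14563 had a positive log2 fold change and 8203 a negative one, and the median was 0.72. A list's median is therefore given also over its members with a mean of at least 50 where that differs by over 0.5. At an unadjusted p below 0.05, 26.0% of all genes tested were higher and 4.06% lower, and 10.3% and 7.68% of those with a mean of at least 50. DESeq2 called 897 higher (4.19%) and 159 lower (0.744%) of the 21383 genes to which it gave an adjusted p. Counts of calls in the lists below are to be read beside these shares of all genes. In simulated counts the edgeR fit of all 22 libraries called 15% of 2-fold changes and 99% of 4-fold changes. A list without a call in that fit may therefore still hold changes of about 2-fold or less. Leaving out SecPDG replicate 3 or 4 took the number called from 197 to 119 or 124. Without SecPDG replicate 2 and Tuft replicate 5, the 2 libraries that stood apart, 218 were higher and 59 lower, and the number lower ran from 1 without Tuft replicate 3 to 17 without Tuft replicate 5. Below, a log2 fold change is given with edgeR's adjusted p from the fit of all 22 libraries (n = 4 and 5 libraries compared). The value after ± is an approximate standard error, the absolute log2 fold change over the square root of the test's F statistic. For a gene called with the 9 libraries alone the fold change and the first adjusted p are from that fit.

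The 12 called genes with the largest rise, among those whose libraries did not overlap, were headed by Gm15284, a predicted gene, at 0, 0, 0 and 0 in SecPDG and 78.1, 20.2, 255, 6.9 and 792 in Tuft. Its Tuft libraries lay far apart, with replicates 1, 3 and 5 above replicates 2 and 4. The same was true of the Paneth cell gene Lyz1, given below (665, 46.7, 494, 72.5 and 1481 in Tuft), and a shared source was not tested. With no count in SecPDG the rise of Gm15284 can only be bounded, as at least 313-fold against a floor of 3 counts over the 4 libraries, and the call was lost without any 1 of SecPDG replicates 1, 3 and 4 and Tuft replicate 5. Rac2, a small GTPase of blood cells, followed at 0, 7.46, 0 and 0 in SecPDG and 1224, 616, 914, 1364 and 703 in Tuft (log2 fold change 9.17 ± 0.90, adjusted p = 1.44e-08). Its SecPDG level rested on 6 counts, all in replicate 2, with estimated background at 51.2% of the mean. The size of the rise is therefore loose, and without that library the fitted log2 fold change was 12.85, against no count. Dclk1, a kinase that binds microtubules and the usual tuft cell marker (chr3:55242364-55539068 in the GENCODE annotation of GRCm38), was at 46.3, 98.2, 312 and 156 in SecPDG and 23982, 11726, 23206, 31012 and 19590 in Tuft. Each Tuft library thus held at least 11726 where no SecPDG library passed 313 (log2 fold change 7.15 ± 0.64, adjusted p = 2.54e-09). Dnah5, an axonemal dynein heavy chain, was at 16.1, 49.7, 17.7 and 11.8 in SecPDG and 3112, 1286, 2318, 3220 and 2120 in Tuft (log2 fold change 6.69 ± 0.63, adjusted p = 5.94e-09). Ly6g6f, a Ly6 family surface protein, was at 0, 4.97, 0 and 10.8 in SecPDG and 288, 244, 497, 577 and 493 in Tuft (log2 fold change 6.72 ± 1.02, adjusted p = 9.47e-05).

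A further 3 among the 12 had few counts in SecPDG. Srpx2, a secreted sushi-repeat protein, was at 0, 8.7, 0 and 0 in SecPDG and 149, 197, 273, 342 and 254 in Tuft (log2 fold change 6.85 ± 1.31, adjusted p = 0.00164). Trim38, a ubiquitin ligase of the interferon response, was at 0, 8.7, 0 and 0 in SecPDG and 209, 160.3, 246, 306 and 273 in Tuft (log2 fold change 6.83 ± 1.33, adjusted p = 0.0021). Tm4sf1, a tetraspan membrane protein, was at 0, 0, 2.53 and 0 in SecPDG and 43.9, 85.8, 159, 171 and 113 in Tuft from 3 counts in SecPDG, a ratio of 156 with a 95% counting interval of 53.1 to 759 (exact, counting error only). Their calls were lost when SecPDG replicate 4 was left out, and also without replicate 1 for Trim38 and Tm4sf1, without replicate 3 for Srpx2 and Trim38, and without SecPDG replicate 2 or Tuft replicate 4 for Tm4sf1. Ptprc, Siglecf and Ptgs1, also among the 12, are given with their groups.

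**Figure D2:**
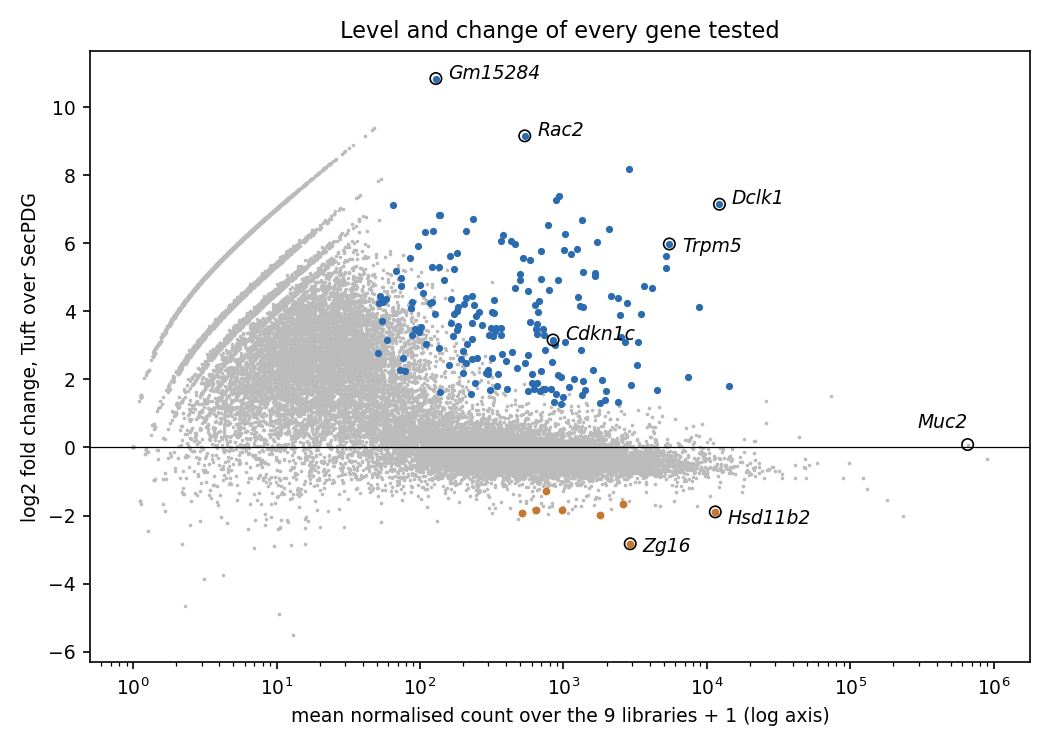
Each point is 1 of the 22781 genes tested, with its mean normalised count over the 9 libraries (log axis, 1 added) against its log2 fold change, Tuft over SecPDG. Blue points are the 189 genes called higher and orange points the 8 called lower. Dclk1 and Trpm5 combine a high level with a large rise, Muc2 lies near 0, and the grey cloud at low counts lies above 0.

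Of 20 transcription factors of the tuft lineage 5 rose, where 0.830% of all genes tested did. With the 9 libraries alone 9 rose, where 1.83% of all genes did, and Atoh1 fell. This list, like those below, was drawn up with earlier results of these data known. The shares therefore describe the list and are no test of it. The list's median log2 fold change was 1.36. Pou2f3, which tuft cells require (chr9:43123939-43210369), was at 116, 134, 124 and 164 in SecPDG and 1842, 1333, 2346, 3852 and 2392 in Tuft (log2 fold change 4.13 ± 0.59, adjusted p = 1.84e-05). Spib, an ETS factor known from B cells and M cells, was at 85.1, 49.7, 45.5 and 91.1 in SecPDG and 2246, 1453, 2927, 3199 and 2299 in Tuft (log2 fold change 5.16 ± 0.58, adjusted p = 1.62e-07). Hmx3, a homeobox factor, was at 18.9, 29.8, 46.3 and 17.6 in SecPDG and 1418, 420.2, 739, 1072 and 698 in Tuft (log2 fold change 4.94 ± 0.52, adjusted p = 1.38e-07). All 3 were several-fold higher in the lowest Tuft library than in the highest SecPDG library. Runx1, a factor of blood development, had means of 499 ± 138 (SD, n = 4) and 1395 ± 264 (SD, n = 5) (log2 fold change 1.48 ± 0.29, adjusted p = 0.00208). Gfi1b, a zinc finger repressor, passed with the 9 libraries alone (log2 fold change 5.24 ± 0.93, adjusted p = 0.00202, and 0.0171 with all 22). It was at 0, 3.73, 13.5 and 6.86 in SecPDG and 29.3, 87.1, 413, 394 and 238 in Tuft. Sox9, the member with the highest mean among those that did not pass, was at 6955, 9031, 8247 and 6461 in SecPDG and 11322, 7329, 10726, 9369 and 10038 in Tuft (log2 fold change 0.35 ± 0.35, adjusted p = 0.497), and the groups overlapped.

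1810046K07Rik, the mouse gene of the Pou2f3 coactivator now named Pou2af2, was at 1.89, 53.5, 47.2 and 58.8 in SecPDG and 1369, 521, 801, 1388 and 861 in Tuft (log2 fold change 4.61 ± 0.70, adjusted p = 5.42e-05). Its promoter is shown because it holds the octamer ATGCAAAT that POU class 2 factors bind, on this gene of their coactivator. It occurred on both strands, 86 bases before the RefSeq start as written and 55 bases before it as the reverse complement (GRCm38.p6, gene on the minus strand, chr9:51328986-51329015 and chr9:51328955-51328984). The 30 bases around each match are printed with the octamer in capitals.
1810046K07Rik, upstream octamer: ctgcattggggATGCAAATtggagagaaac
1810046K07Rik, downstream octamer: tacaccagaggATTTGCATttaatcaaatc
Of the 189 genes called higher in Tuft, 150 had a RefSeq promoter (250 bases before to 50 after the start) and 8 of these held the octamer on either strand (5.33%), beside 305 of 16762 genes tested (1.82%). The other 7 were Hpgds, Kctd12, Pfkfb3, Pnpla3, Ptprh, Stox2 and Trim40. A match describes the letters of this window and not the binding of a factor.

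Some members of the taste-type signalling chain rose, among them its channel, a cyclase, phospholipases and a G protein alpha subunit. Of 29 members 6 passed, 11 with the 9 libraries alone, where 0.830% and 1.83% of all genes were called higher. The median log2 fold change was 2.42, or 1.14 over the 24 members with a mean of at least 50. Of the list's 9 G protein genes 1 was called, and their median was -0.05 over the 7 with such a mean. Gnat3, the G protein alpha subunit gustducin, was at 0.945, 11.2, 31.2 and 33.3 in SecPDG and 918, 519, 948, 1267 and 942 in Tuft (log2 fold change 5.56 ± 0.69, adjusted p = 2.45e-06). Adcy5, an adenylyl cyclase, was at 0.945, 59.7, 32 and 63.7 in SecPDG and 2701, 1017, 1910, 2778 and 1626 in Tuft (log2 fold change 5.69 ± 0.61, adjusted p = 7.30e-08). Trpm5, the channel at the end of the chain, was at 154, 146, 124 and 190 in SecPDG and 10537, 5506, 9380, 14577 and 8640 in Tuft, a 63.4-fold rise (log2 fold change 5.99 ± 0.64, adjusted p = 6.96e-08). The other 3 called members are enzymes or channels that release calcium. Plcb2, the phospholipase C of taste cells, rose 15-fold (log2 fold change 3.91 ± 0.45, adjusted p = 2.75e-07). Plcg2 rose 8.58-fold (log2 fold change 3.10 ± 0.35, adjusted p = 1.76e-07) and the IP3 receptor Itpr2 rose 5.34-fold (log2 fold change 2.42 ± 0.33, adjusted p = 6.76e-06).

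Of the upstream receptors and the G protein subunits, 3 and 2 more passed with the 9 libraries alone. Sucnr1, the succinate receptor, was at 0, 4.97, 2.53 and 3.92 in SecPDG and 148, 49.2, 158, 136 and 121 in Tuft (log2 fold change 5.48 ± 0.96, adjusted p = 0.00194, and 0.0223 with all 22). Ffar3, a receptor of short-chain fatty acids, was at 0, 26.1, 0 and 2.94 in SecPDG and 90.3, 178, 441, 404 and 228 in Tuft (log2 fold change 5.45 ± 0.96, adjusted p = 0.00203, and 0.0293 with all 22). Gnai2, a G protein alpha subunit of many cells, was at 2561, 3771, 3635 and 3455 in SecPDG and 6049, 4199, 5905, 6153 and 6169 in Tuft (log2 fold change 0.81 ± 0.14, adjusted p = 0.00202, and 0.0958 with all 22). Gng13, a G protein gamma subunit of taste cells, was at 16.1, 6.22, 5.9 and 15.7 in SecPDG and 43.9, 143, 131, 266 and 237 in Tuft (log2 fold change 3.87 ± 0.73, adjusted p = 0.00353, and 0.0733 with all 22). The receptor Gprc5c was at 0, 21.1, 25.3 and 4.9 in SecPDG and 209.9, 119, 359, 216 and 139.7 in Tuft (log2 fold change 4.10 ± 0.82, adjusted p = 0.00512, and 0.0135 with all 22). None of these 5 overlapped between the groups. Itpr3, the IP3 receptor type usual in taste cells, had means of 5675 ± 1074 in SecPDG and 3689 ± 749 in Tuft (SD, n = 4 and 5), and its libraries lay lower in Tuft without overlap. Gnb1, a G protein beta subunit, was at 5388, 6676, 5592 and 5400 in SecPDG and 5819, 4337, 5459, 5130 and 5992 in Tuft (log2 fold change -0.11 ± 0.30, adjusted p = 0.82) and changed sign with the scaling.

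Among 20 RGS proteins, which switch G protein alpha subunits off, 2 passed, where 0.830% of all genes were called higher. The median log2 fold change was 2.11, or 1.22 over the 12 with a mean of at least 50. Rgs13 was at 131, 37.3, 108 and 73.5 in SecPDG and 2280, 1686, 2303, 4740 and 3492 in Tuft (log2 fold change 5.04 ± 0.44, adjusted p = 5.04e-09). Rgs22 was at 3.78, 57.2, 16 and 27.4 in SecPDG and 389, 472, 679, 2142 and 718 in Tuft, with Tuft replicate 4 the highest (log2 fold change 5.09 ± 0.76, adjusted p = 4.09e-05). Rgs2, the member with the highest mean among the rest, was at 1170, 528, 935 and 715 in SecPDG and 1090, 1215, 1254, 2410 and 2053 in Tuft (log2 fold change 0.94 ± 0.44, adjusted p = 0.152), and the groups overlapped. Acetylcholine synthesis was marked by Chat, choline acetyltransferase, at 0, 6.22, 16 and 12.7 in SecPDG and 635, 356, 396, 1456 and 549 in Tuft (log2 fold change 6.24 ± 0.81, adjusted p = 2.85e-06). It was the 1 member of 25 to pass in that list, whose median was 0.77, or -0.0027 over the 17 with a mean of at least 50, and DESeq2 called 6. Ptprn2, a dense core vesicle protein and the most abundant member that did not pass by normalised count, was at 4749, 6353, 5753 and 4771 in SecPDG and 4477, 3561, 4138, 2519 and 5415 in Tuft (log2 fold change -0.43 ± 0.33, adjusted p = 0.372).

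Enzymes of both branches of eicosanoid synthesis rose. Of 37 members 5 passed, where 0.830% of all genes were called higher. The median was 1.21, 0.07 over the 22 with a mean of at least 50, and 0.41 with the 9 libraries alone. Ptgs1, the cyclooxygenase that makes prostaglandin H2, was at 0, 24.9, 10.1 and 25.5 in SecPDG and 1152, 902, 1527, 2173 and 1190 in Tuft (log2 fold change 6.54 ± 0.75, adjusted p = 2.23e-07). Hpgds, which converts it to prostaglandin D2, had means of 157 ± 78.9 (SD, n = 4) and 1387 ± 719 (SD, n = 5), and its rise was called (log2 fold change 3.14 ± 0.47, adjusted p = 4.09e-05). In the leukotriene branch, Alox5, the lipoxygenase of the first step, was at 55.8, 42.3, 22.7 and 50 in SecPDG and 3254, 2232, 4019, 5699 and 3243 in Tuft (log2 fold change 6.43 ± 0.53, adjusted p = 6.00e-10). Alox5ap, the protein that presents arachidonic acid to it, was at 0.945, 19.9, 15.2 and 15.7 in SecPDG and 648, 448, 700.2, 1433 and 864 in Tuft (log2 fold change 5.99 ± 0.73, adjusted p = 8.96e-07). Ltc4s, leukotriene C4 synthase, completed the branch (log2 fold change 4.34 ± 0.74, adjusted p = 0.000302), with 5.67, 36, 21.9 and 48 in SecPDG and 679.8, 274, 583, 775 and 521 in Tuft. Each of these 5 had its lowest Tuft library above its highest SecPDG library.

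Of the list's other members, 1 fell. Ptger4, a prostaglandin E2 receptor, fell with the 9 libraries alone (log2 fold change -1.22 ± 0.18, adjusted p = 0.000319, and 0.0382 with all 22). Its level went from 2303, 2868, 2627 and 2526 in SecPDG to 760.4, 1230, 971, 896 and 1562 in Tuft. Pla2g4c, a phospholipase A2 and the most counted member that did not pass, was at 764, 18594, 919.9 and 2074 in SecPDG and 211, 5110, 556, 3866 and 1635 in Tuft (log2 fold change -1.30 ± 0.84, adjusted p = 0.28). Its SecPDG value rested on replicate 2, and the sign turned without that library. Pla2g4a, the phospholipase A2 that frees arachidonic acid, had means of 1699 ± 351 and 1913 ± 467 (SD, n = 4 and 5; log2 fold change 0.17 ± 0.30, adjusted p = 0.7).

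Signalling genes better known from blood cells were the list with the most calls when all 22 libraries were in the fit. Of 36 tested 11 passed, where 0.830% of all genes were called higher. They were 3 of 15 kinases and 8 of 21 adaptors, exchange factors and GTPases. The list's median log2 fold change was 1.94, or 1.33 over the 26 with a mean of at least 50. With the 9 libraries alone 14 passed, fewer than the 21 of the replication and mitosis list. Matk, a kinase that restrains Src kinases, was at 2.84, 24.9, 32.9 and 33.3 in SecPDG and 1689, 1056, 1653, 2842 and 1833 in Tuft (log2 fold change 6.26 ± 0.67, adjusted p = 6.17e-08). Rac2, given above, rose most. Members with the scaffold, exchange and lipid kinase roles rose with them. The adaptor Fyb rose 49.4-fold (log2 fold change 5.63 ± 0.45, adjusted p = 6.00e-10), and the exchange factor Vav1 18.9-fold (log2 fold change 4.24 ± 0.36, adjusted p = 9.14e-10). Of the PI3 kinase subunits, Pik3r5 rose 38.9-fold (log2 fold change 5.28 ± 0.55, adjusted p = 4.27e-08) and Pik3cg 21-fold (log2 fold change 4.39 ± 0.48, adjusted p = 1.15e-07). Sh2d7, an SH2 adaptor, was at 218, 143, 397 and 196 in SecPDG and 6142, 3595, 6359, 9543 and 6275 in Tuft (log2 fold change 4.74 ± 0.57, adjusted p = 8.18e-07). Jak1, a kinase of cytokine receptors in most cells, was at 3670, 4726, 3519 and 3823 in SecPDG and 2808, 2534, 3204, 2827 and 4263 in Tuft (log2 fold change -0.33 ± 0.29, adjusted p = 0.431), and the groups overlapped. Ptpn6, the phosphatase Shp1 that dampens Kit and cytokine receptors, was at 234, 504, 541 and 489 in SecPDG and 2955, 2635, 3252, 6942 and 5047 in Tuft (log2 fold change 3.24 ± 0.34, adjusted p = 4.27e-08).

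No member of the T and B cell, macrophage or mast cell marker lists was called in either edgeR fit. A call needed a mean of at least 50, which 0 of 10, 2 of 9 and 0 of 9 reached with all 22 libraries in the fit. Most of these genes therefore could not be called. At an unadjusted p below 0.05, 5 of 10, 6 of 9 and 5 of 9 were higher in Tuft, where 26.0% of all genes tested were, and DESeq2 called 1 macrophage marker. Tuft replicate 1 held Rac2 at 1224. Its sums were 0 on the T and B cell list, 469 on the macrophage and dendritic cell list and 42.7 on the mast cell and basophil list. In the same libraries Ptprc, the pan-leukocyte antigen Cd45 against which cells were sorted, was at 0, 28.6, 5.05 and 7.83 in SecPDG and 1601, 958, 1376, 3003 and 1416 in Tuft (log2 fold change 7.40 ± 0.74, adjusted p = 1.88e-08). Over the Tuft libraries Ptprc was highest in replicate 4, and the sum of the T and B cell list was highest in replicate 3. The part of such cells in the rise was not tested.

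Cytokine receptors and surface lectins followed, with 4 of 20 called, where 0.830% of all genes were called higher, and a median of 1.08. Siglecf, a sialic acid lectin known from eosinophils, was at 0, 17.4, 10.1 and 13.7 in SecPDG and 1681, 878, 1728, 2328 and 1283 in Tuft (log2 fold change 7.27 ± 0.76, adjusted p = 4.92e-08). Cd300lf, an immune receptor of the Cd300 family, was at 13.2, 11.2, 80 and 17.6 in SecPDG and 837, 544, 618, 1242 and 775 in Tuft (log2 fold change 4.69 ± 0.76, adjusted p = 0.000154). Il17rb, the receptor chain that binds Il25, was at 95.5, 32.3, 53.9 and 30.4 in SecPDG and 813, 275, 565, 904 and 504 in Tuft (log2 fold change 3.52 ± 0.50, adjusted p = 1.74e-05). All 3 were separated between the groups. Il13ra1, a receptor chain for interleukins 4 and 13, was at 1187, 2841, 1606 and 2360 in SecPDG and 4596, 2804, 3554, 5792 and 4822 in Tuft. It passed with the 9 libraries alone (log2 fold change 1.18 ± 0.20, adjusted p = 0.00135, and 0.0616 with all 22), although the groups overlapped by a small margin. Ifngr1, an interferon gamma receptor chain, fell in that fit (log2 fold change -0.92 ± 0.19, adjusted p = 0.00583, and 0.0714 with all 22). Il25 itself had means of 0.622 and 32.1, from 2 and 142 counts, below the minimum mean for a call.

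Of 39 genes of microvilli, actin and microtubules 8 rose, where 0.830% of all genes did, while the list's median was 0.11. Avil, advillin, an actin bundler of the villin family, was at 261, 246, 378 and 241 in SecPDG and 6865, 4215, 5867, 11995 and 7298 in Tuft (log2 fold change 4.68 ± 0.55, adjusted p = 4.81e-07). Msn, moesin, a linker of actin to the membrane, was at 0, 23.6, 0 and 8.81 in SecPDG and 187, 148, 437, 444 and 284 in Tuft (log2 fold change 5.24 ± 1.05, adjusted p = 0.00292). The call was lost without any 1 of SecPDG replicates 1, 3 and 4 or Tuft replicates 3 and 4. The bundler Espn rose 7.3-fold (log2 fold change 2.87 ± 0.37, adjusted p = 2.76e-06), the tubulin Tuba1a 18-fold (log2 fold change 4.17 ± 0.51, adjusted p = 1.00e-06) and the microtubule protein Map2 19.9-fold (log2 fold change 4.32 ± 0.54, adjusted p = 1.24e-06). Dclk1, given above, is also in this list. Some brush border genes did not pass. Cdhr5, a protocadherin that links neighbouring microvilli, was at 7687, 17737, 7072 and 8431 in SecPDG and 11193, 8625, 9491, 10572 and 10132 in Tuft (log2 fold change -0.03 ± 0.34, adjusted p = 0.956), its sign depending on the scaling. Villin, Vil1, had means of 9467 ± 1709 and 8803 ± 1526 (SD, n = 4 and 5; log2 fold change -0.10 ± 0.38, adjusted p = 0.859).

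Of 6 keratins, the intermediate filament proteins of epithelia, Krt23 was called, at 9.45, 60.9, 80.9 and 69.5 in SecPDG and 1505, 789, 1328, 1963 and 1304 in Tuft (log2 fold change 4.64 ± 0.54, adjusted p = 3.29e-07). Krt18 was at 14169, 25748, 16442 and 20252 in SecPDG and 23920, 23687, 26300, 41397 and 41372 in Tuft (log2 fold change 0.71 ± 0.38, adjusted p = 0.198), and DESeq2 called its rise. Krt19 fell with the 9 libraries alone (log2 fold change -1.15 ± 0.18, adjusted p = 0.000695, and 0.088 with all 22), from 13590, 20260, 17033 and 19049 to 6951, 6945, 6490, 5462 and 12860. Krt7 fell in the same fit, with a log2 fold change of -0.87 ± 0.18 (adjusted p = 0.00586). The list's median was -0.23.

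**Figure D3:**
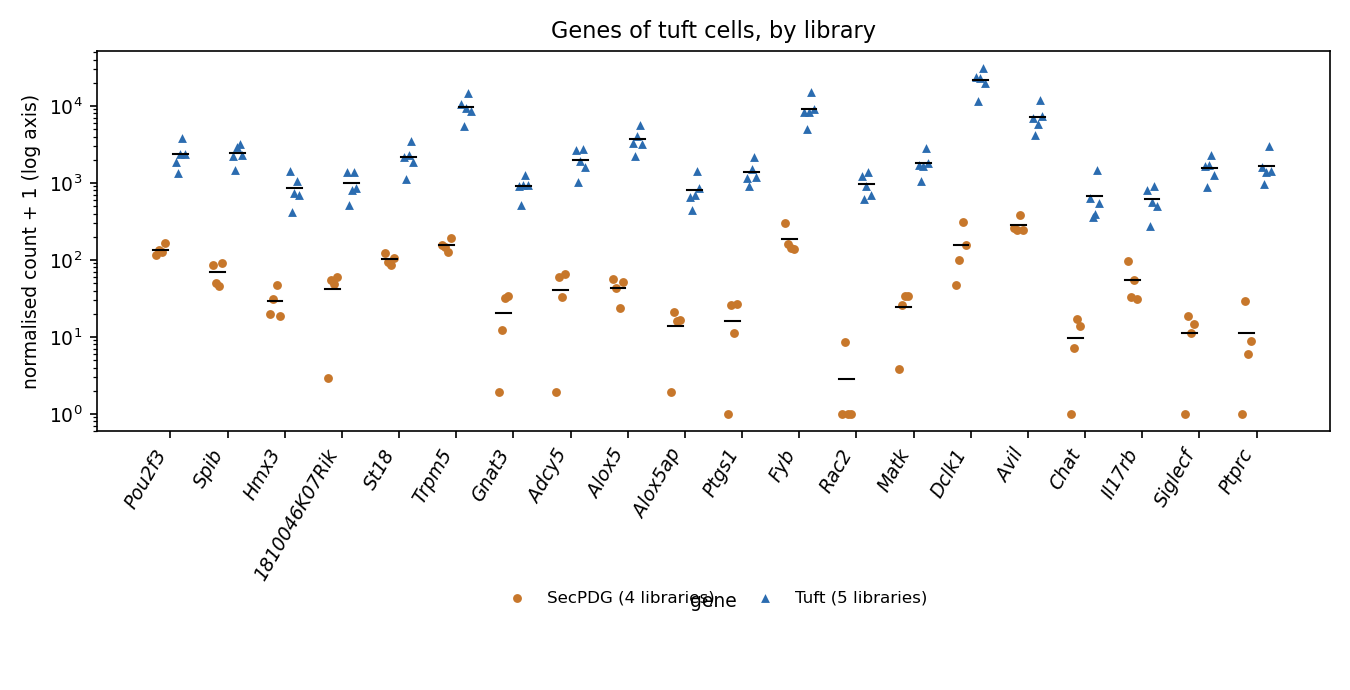
Normalised count (log axis, 1 added) of 20 genes of the tuft lineage in the 4 SecPDG libraries (circles) and 5 Tuft libraries (triangles), with the group mean as a line. In each of the 20 genes the lowest Tuft library lies above the highest SecPDG library, and Tuft replicate 2 is the lowest of its group in all 20 and replicate 4 the highest in 19, all but Hmx3.

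Genes of cell division fell in part, most of them with the 9 libraries alone. Of the 8 genes called lower, 4 were histone genes of the replication-dependent clusters and 1 was the mitotic kinase Melk. Hist1h2ac was at 2381, 3755, 2303 and 3782 in SecPDG and 167, 873, 537, 708 and 1594 in Tuft (log2 fold change -1.98 ± 0.40, adjusted p = 0.00359). Hist1h3i was at 743, 1103, 616 and 1025 in SecPDG and 117, 300.3, 164, 227 and 335 in Tuft (log2 fold change -1.93 ± 0.41, adjusted p = 0.00567). Hist1h3f was at 1583, 2239, 850 and 1885 in SecPDG and 261, 538, 356, 452 and 682 in Tuft (log2 fold change -1.84 ± 0.37, adjusted p = 0.00285). In each of these 3 the highest Tuft library lay below the lowest SecPDG library. Hist1h4b was at 939, 1483, 565 and 1327 in SecPDG and 107, 439, 179.5, 297 and 495 in Tuft (log2 fold change -1.83 ± 0.39, adjusted p = 0.00524). Melk was at 1059, 1102, 1218 and 1115 in SecPDG and 460.1, 481, 289, 411 and 682 in Tuft (log2 fold change -1.27 ± 0.27, adjusted p = 0.00578). In all 5 every SecPDG library lay above every Tuft library, but each of the 5 calls was lost without SecPDG replicate 4 and without Tuft replicate 3. Coding sequences of these histones are near-identical between copies, so counts per copy are uncertain. The family was looked at after these values were seen. Of 59 histone genes with the symbols Hist1h to Hist4h tested, 36 fell with the 9 libraries alone and 30 did not overlap, where 3.23% of all genes lay so. Their median log2 fold change was -1.59, or -1.92 to -1.26 across the other scalings and fits.

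The list of 52 replication and mitosis genes held no call with all 22 libraries in edgeR, where 35 were lower at an unadjusted p below 0.05, beside 7.68% of all genes with a mean of at least 50. With the 9 libraries alone 21 fell, where 1.49% of all genes did. They were 7 of 26 replication genes and 14 of 26 mitosis genes, and DESeq2 called 7. All 52 had a negative log2 fold change, with a median of -0.90 that stayed between -1.03 and -0.63 under the other scalings and fits. Mki67, the proliferation antigen, was at 22163, 26625, 26585 and 27178 in SecPDG and 10540, 12830, 9531, 8781 and 17021 in Tuft (log2 fold change -1.10 ± 0.17, adjusted p = 0.000759, and 0.0718 with all 22). Top2a, the topoisomerase of dividing cells, was at 7827, 8249, 8917 and 9301 in SecPDG and 3813, 3913, 3990, 3288 and 6004 in Tuft (log2 fold change -1.01 ± 0.15, adjusted p = 0.000573, and 0.0581 with all 22). Ccnb2, a mitotic cyclin, was at 1039, 1001, 1252 and 1020 in SecPDG and 334, 381, 417, 327 and 534 in Tuft (log2 fold change -1.42 ± 0.19, adjusted p = 0.000139, and 0.0452 with all 22). No Tuft library reached the SecPDG range of these 3, and Tuft replicate 5 was the closest. Mean Mki67 was 25638 ± 2332 (SD, n = 4) in SecPDG and 11741 ± 3322 (SD, n = 5) in Tuft, so the transcript remained in the Tuft libraries.

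Of 17 genes listed under cell cycle exit, Cdkn1c, the cyclin-dependent kinase inhibitor p57, was called. It was at 206, 170.3, 124 and 124 in SecPDG and 1948, 828, 1719, 1022 and 1471 in Tuft (log2 fold change 3.16 ± 0.34, adjusted p = 6.96e-08). Every Tuft library lay above every SecPDG library, a rise of 8.95-fold. The inhibitors Cdkn1a and Cdkn1b, p21 and p27, had log2 fold changes of 0.24 ± 0.43 and 0.08 ± 0.28 (adjusted p = 0.709 and 0.856). Ccnd2, the most counted member not called, is a D-type cyclin and no inhibitor, so the list is not confined to genes of exit. It was at 4160, 3378, 4786 and 4319 in SecPDG and 4360, 1786, 2744, 1438 and 3364 in Tuft (log2 fold change -0.60 ± 0.39, adjusted p = 0.275). The list's median, with Ccnd2 included, was -0.42.

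Of 15 mucus genes 1 fell with all 22 libraries in the fit and 3 with the 9 alone, where 0.0351% and 1.49% of all genes did. For 7, every Tuft library lay below every SecPDG library, where 3.23% of all genes lay so. Zg16, a lectin of the inner mucus layer that binds bacteria (chr7:127050156-127087328), was the 1 called with all libraries and had the largest fall among the 8 genes called lower. It was at 4922, 6063, 5931 and 5447 in SecPDG and 735, 768, 555, 549.8 and 1316 in Tuft, 7.12-fold lower (log2 fold change -2.83 ± 0.45, adjusted p = 0.000114). Its call held with each library left out in turn. Tff3, the trefoil peptide of goblet cells, fell with the 9 libraries alone (log2 fold change -1.62 ± 0.34, adjusted p = 0.00662, and 0.0296 with all 22). Its libraries held 5093, 11236, 6013 and 8371 in SecPDG and 829, 4024, 1266, 2883 and 2689 in Tuft. Fcgbp, a mucin-like protein that crosslinks with Muc2, did so too (log2 fold change -1.85 ± 0.41, adjusted p = 0.00932, and 0.0521 with all 22). It was at 212312, 912524, 205832 and 262342 in SecPDG and 62935, 175122, 50211, 121764 and 84942 in Tuft, where SecPDG replicate 2 was far above the others. The 3 genes shared the feature that no Tuft library reached the lowest SecPDG library.

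Muc2, the gel-forming mucin of the colon (chr7:141690340-141754693), was by contrast at 374491, 1142465, 357973 and 669317 in SecPDG and 970170, 518812, 755077, 377878 and 753485 in Tuft (log2 fold change 0.09 ± 0.65, adjusted p = 0.937). The groups overlapped fully, and leaving out SecPDG replicate 1 or 3 or Tuft replicate 1 turned the sign. Clca1, a metalloprotease that cleaves Muc2, was at 53997, 856191, 59880 and 155441 in SecPDG and 18236, 211307, 15659, 147278 and 94238 in Tuft (log2 fold change -1.53 ± 0.75, adjusted p = 0.167), again with SecPDG replicate 2 far above. Without that library its log2 fold change was -0.08. Retnlb, a secreted protein that acts on bacteria, was at 18148, 64904, 23161 and 34423 in SecPDG and 5895, 44530, 7611, 32633 and 27554 in Tuft (log2 fold change -0.57 ± 0.57, adjusted p = 0.484). Agr2, the disulfide isomerase needed for Muc2 assembly, was at 51204, 70911, 65161 and 91565 in SecPDG and 33286, 44995, 37537, 34649 and 102306 in Tuft (log2 fold change -0.46 ± 0.50, adjusted p = 0.524). Tuft replicate 5 passed every SecPDG library. Spdef, the ETS factor of goblet maturation, was at 6136, 7246, 6188 and 6024 in SecPDG and 3323, 3927, 3841, 2913 and 5750 in Tuft (log2 fold change -0.70 ± 0.36, adjusted p = 0.19), lower in every Tuft library. Over the mucus list the median was -0.67 and 12 of 15 were negative.

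Of 11 secreted products of deep crypt cells tested none was called with all libraries in edgeR, 1 had an unadjusted p below 0.05, and DESeq2 called 0. Reg4, the lectin that marks deep crypt secretory cells, was at 113400, 231630, 135033 and 180484 in SecPDG and 39136, 127126, 43547, 95719 and 136527 in Tuft (log2 fold change -0.90 ± 0.59, adjusted p = 0.282). Tuft replicates 2 and 5 lay in the SecPDG range. Lyz1, the lysozyme of Paneth cells, passed with the 9 libraries alone (log2 fold change 4.77 ± 1.02, adjusted p = 0.0076, and 0.0248 with all 22). It was at 0, 1.24, 48.9 and 24.5 in SecPDG and 665, 46.7, 494, 72.5 and 1481 in Tuft, with replicates far apart. The median of the list was 0.42, or -0.09 over the 9 members with a mean of at least 50, while its summed level was 204557, 505811, 253075 and 396264 in SecPDG and 79947, 291894, 92537, 224132 and 384910 in Tuft, so that median and sum differed in direction. Leaving out 1 library moved the median between -0.19 and 0.56.

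A few genes of the ER and of secretion fell with the 9 libraries alone, and none with all 22. Of 46 genes of ER folding and the unfolded protein response, 43 had a negative log2 fold change and the median was -0.61. None was called with all libraries, 11 were lower at an unadjusted p below 0.05 (7.68% of all genes with a mean of at least 50 were), and DESeq2 called 1 lower and 1 higher. With the 9 libraries alone 5 fell and 1 rose, where 1.49% and 1.83% of all genes did. Pdia5, a disulfide isomerase, was at 7453, 12721, 7934 and 9712 in SecPDG and 2777, 5021, 3573, 3740 and 6627 in Tuft (log2 fold change -1.07 ± 0.19, adjusted p = 0.0025, and 0.0547 with all 22). Pdia4, another isomerase, was at 10732, 18412, 11397 and 13430 in SecPDG and 6614, 6736, 6527, 5837 and 11493 in Tuft (log2 fold change -0.81 ± 0.16, adjusted p = 0.00556, and 0.117 with all 22). Tuft replicate 5 reached the SecPDG range of Pdia4 and not that of Pdia5. Sdf2l1, a cofactor of the chaperone Hspa5, was at 1434, 1661, 1142 and 1352 in SecPDG and 468, 801, 645, 639.5 and 1012 in Tuft (log2 fold change -0.94 ± 0.19, adjusted p = 0.00601, and 0.0661 with all 22). Hspa5 itself, the chaperone BiP, was at 20516, 32896, 24671 and 26947 in SecPDG and 13284, 14314, 13445, 12289 and 23670 in Tuft (log2 fold change -0.73 ± 0.16, adjusted p = 0.00978, and 0.156 with all 22). It too overlapped through Tuft replicate 5, and Sdf2l1 did not overlap. The exception was Ero1lb, an oxidase that recharges the isomerases, at 95.5, 154, 234 and 131 in SecPDG and 964, 587, 608, 1248 and 734 in Tuft (log2 fold change 2.47 ± 0.30, adjusted p = 4.36e-05, and 0.0204 with all 22).

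Calr, calreticulin, the calcium-binding chaperone of the ER with the highest mean of the list, was at 28146, 51590, 38786 and 41605 in SecPDG and 20956, 22077, 21474, 19230 and 41329 in Tuft (log2 fold change -0.68 ± 0.39, adjusted p = 0.225). Tuft replicate 5 reached the SecPDG range where the other 4 Tuft libraries lay below it. Its promoter is shown because it holds the ER stress response element, CCAAT and CCACG with 9 free bases between them, through which Atf6 and Xbp1 act, on the reverse strand with its first base 162 bases before the RefSeq start (GRCm38.p6, gene on the minus strand, chr8:84847069-84847098). The element is in capitals.
Calr, ER stress response element: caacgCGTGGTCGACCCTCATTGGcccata
The element occurred on either strand in 9 of the 36 list genes with a promoter (25%), among them Hspa5, Hsp90b1 and Pdia6, beside 27 of 16762 genes tested (0.161%). The list holds known targets of this element, so the share describes the list and not the comparison.

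Of 48 genes of entry into the ER and vesicle transport 46 were negative, with a median of -0.54. At an unadjusted p below 0.05, 10 were lower, beside 7.68% of all genes with a mean of at least 50. edgeR gave 0 calls with all libraries, DESeq2 gave 1 and the 9 libraries alone gave 2. The first was Lman2, a cargo lectin (log2 fold change -0.73 ± 0.15, adjusted p = 0.00586, and 0.149 with all 22). The other was Sec61a1, the translocon channel (log2 fold change -0.71 ± 0.16, adjusted p = 0.00978, and 0.105 with all 22). Copa, a subunit of the COPI coat, was at 10841, 18107, 12160 and 13382 in SecPDG and 8852, 7794, 8274, 7052 and 12071 in Tuft (log2 fold change -0.63 ± 0.34, adjusted p = 0.205). Of 37 enzymes of mucin glycans and sulfation 4 fell and 1 rose with the 9 libraries alone. None was called with all 22, and DESeq2 called 0 lower and 1 higher. At an unadjusted p below 0.05, 9 were lower and 3 higher, beside 7.68% and 10.3% of all genes with a mean of at least 50. The median was -0.53. The 4 that fell all add or supply sulfate or fucose. Chst4, a sulfotransferase, was at 4270, 6825, 3940 and 4992 in SecPDG and 2332, 2601, 2700, 2329 and 3830 in Tuft (log2 fold change -0.81 ± 0.15, adjusted p = 0.00313, and 0.135 with all 22). Papss2, which makes the sulfate donor, was at 11091, 27816, 11357 and 14148 in SecPDG and 4063, 8719, 3280, 6798 and 7151 in Tuft (log2 fold change -1.32 ± 0.27, adjusted p = 0.00584, and 0.0683 with all 22). Neither overlapped between the groups. Gal3st2, a galactose sulfotransferase, was at 208, 961, 594 and 558 in SecPDG and 115, 229.7, 160.5, 231 and 224 in Tuft (log2 fold change -1.49 ± 0.32, adjusted p = 0.008, and 0.0302 with all 22). Fut4, a fucosyltransferase, was at 4548, 5408, 4186 and 4368 in SecPDG and 2846, 2643, 2658, 1998 and 3753 in Tuft (log2 fold change -0.71 ± 0.16, adjusted p = 0.009, and 0.181 with all 22). Fut4 did not overlap, and Gal3st2 did through SecPDG replicate 1. Gcnt1, which branches the glycan core, was at 120.1, 98.2, 215 and 135 in SecPDG and 572, 338, 478, 574 and 427 in Tuft (log2 fold change 1.76 ± 0.30, adjusted p = 0.00161, and 0.0581 with all 22). B4galnt2, which adds N-acetylgalactosamine, was at 26152, 51275, 28561 and 29341 in SecPDG and 16102, 21107, 13370, 15984 and 23949 in Tuft without overlap, and passed in no fit (log2 fold change -0.90 ± 0.43, adjusted p = 0.158).

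**Figure D4:**
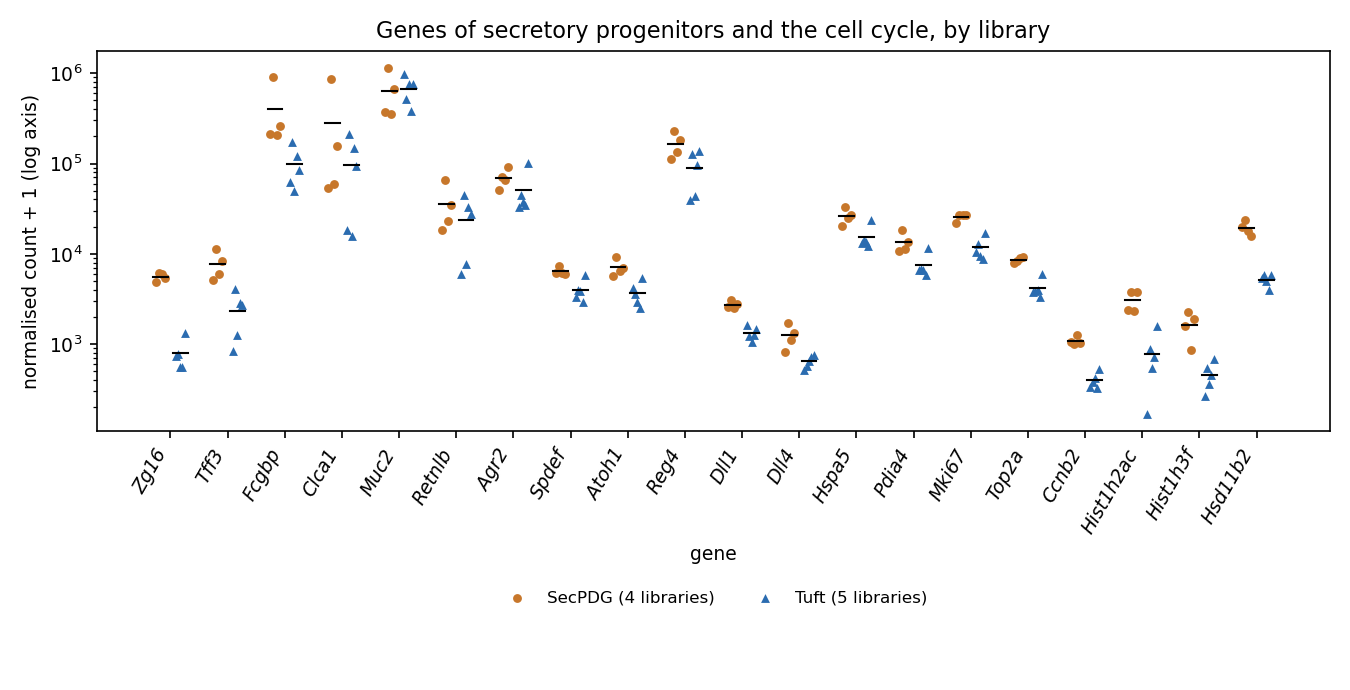
Normalised count (log axis, 1 added) of 20 genes of the secretory progenitors and of cell division in the 4 SecPDG libraries (circles) and 5 Tuft libraries (triangles), with the group mean as a line. Zg16 shows the widest gap relative to its level, Muc2 none, and the division genes sit lower in Tuft with replicate 5 nearest to SecPDG.

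Transcription factors of the secretory fate went in both directions. St18, a zinc finger factor, was the 1 of 24 called with all libraries, at 122, 93.2, 85.9 and 104 in SecPDG and 2180, 1121, 2299, 3542 and 1845 in Tuft (log2 fold change 4.44 ± 0.61, adjusted p = 9.85e-06). Atoh1, the factor that commits cells to the secretory lineage, fell with the 9 libraries alone (log2 fold change -0.89 ± 0.17, adjusted p = 0.00438, and 0.165 with all 22). It went from 5642, 9207, 6471 and 6896 in SecPDG to 4147, 3537, 2903, 2522 and 5347 in Tuft. Foxa2, a forkhead factor, was at 1459, 1258, 1684 and 1129 in SecPDG and 807, 661, 674, 444 and 832 in Tuft (log2 fold change -1.01 ± 0.21, adjusted p = 0.00659, and 0.0577 with all 22). For both, every Tuft library lay below every SecPDG library. The median of the list was -0.38.

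Of 5 Notch ligands, through which secretory cells hold their neighbours back from the same fate, 2 fell with the 9 libraries alone and none with all 22. Dll1, the ligand of crypt progenitors, was at 2556, 3088, 2515 and 2775 in SecPDG and 1638, 1233, 1041, 1262 and 1484 in Tuft (log2 fold change -0.997 ± 0.15, adjusted p = 0.000477, and 0.0418 with all 22). Dll4 was at 808, 1718, 1120 and 1339 in SecPDG and 518, 573, 652, 712 and 746 in Tuft (log2 fold change -0.89 ± 0.17, adjusted p = 0.00331, and 0.0704 with all 22). The receptor Notch4 rose in that fit, at 102, 148, 139.8 and 221 in SecPDG and 620, 299, 833, 307 and 321 in Tuft (log2 fold change 1.71 ± 0.35, adjusted p = 0.00601, and 0.0394 with all 22). None of 26 Notch genes was called with all 22 libraries, 6 were higher and 3 lower at an unadjusted p below 0.05, where 26.0% and 4.06% of all genes tested were, and DESeq2 called 2 higher and 1 lower. The median was -0.02.

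Of 29 Wnt and crypt base genes 2 were called. Nkd1, an inhibitor and target of Wnt signalling, was at 30.2, 41, 67.4 and 59.7 in SecPDG and 604, 358, 411, 954 and 522 in Tuft (log2 fold change 3.52 ± 0.60, adjusted p = 0.000382). Msi1, an RNA-binding protein of progenitors, was at 111, 117, 34.5 and 125 in SecPDG and 386, 186, 636, 630.3 and 364 in Tuft (log2 fold change 2.19 ± 0.46, adjusted p = 0.00448). The call was lost without any 1 SecPDG library and without Tuft replicate 3 or 4. Lgr5, the receptor that marks crypt base stem cells, passed with the 9 libraries alone (log2 fold change 1.13 ± 0.23, adjusted p = 0.00586, and 0.0386 with all 22). Its level was 482, 441, 465 and 718 in SecPDG and 1651, 788, 1029, 1209 and 915 in Tuft. The targets Axin2 and Myc had log2 fold changes of -0.34 ± 0.28 and -0.87 ± 0.38 (adjusted p = 0.392 and 0.131). Ctnnb1, beta-catenin, was at 9843, 13345, 9316 and 11312 in SecPDG and 9793, 6869, 7513, 7359 and 10401 in Tuft (log2 fold change -0.39 ± 0.34, adjusted p = 0.43), and the median over the list was -0.09. Among 32 genes of Kit, EGF and FGF signalling Ptpn6 was called. Fgfr2, an FGF receptor, fell with the 9 libraries alone (log2 fold change -1.05 ± 0.19, adjusted p = 0.00287, and 0.0473 with all 22). It was at 5563, 12900, 7470 and 9083 in SecPDG and 3281, 4789, 2774, 3806 and 5420 in Tuft. The median there was -0.18.

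Of the genes of ribosome biogenesis and the respiratory chain, 3 each fell with the 9 libraries alone, where 1.49% of all genes did, and none with all 22. Of 30 ribosome biogenesis genes 29 were negative (median -0.59), 10 at an unadjusted p below 0.05, and edgeR called none with all libraries and 3 with the 9 alone, DESeq2 2. Nolc1, a nucleolar phosphoprotein, was at 2380, 3208, 3049 and 3042 in SecPDG and 1251, 1323, 1011, 1358 and 2447 in Tuft (log2 fold change -0.96 ± 0.18, adjusted p = 0.00294, and 0.044 with all 22). Ncl, nucleolin, was at 15085, 17271, 20377 and 21851 in SecPDG and 10360, 10873, 10382, 10450 and 20202 in Tuft (log2 fold change -0.58 ± 0.39, adjusted p = 0.294), and Tuft replicate 5 again reached the SecPDG range. All 40 nuclear genes of the respiratory chain were negative (median -0.60), 8 at an unadjusted p below 0.05, and edgeR called none with all libraries and 3 with the 9 alone, DESeq2 2. Atp5a1, the ATP synthase alpha subunit, was at 26803, 32128, 30438 and 29605 in SecPDG and 17197, 15802, 16693, 14600 and 24238 in Tuft (log2 fold change -0.72 ± 0.15, adjusted p = 0.00601, and 0.205 with all 22). No gene of the 16 for MHC presentation was called in either edgeR fit or by DESeq2, with 3 lower and 1 higher at an unadjusted p below 0.05. H2-K1, a class I chain with near-identical relatives, was at 8817, 9607, 11270 and 13138 in SecPDG and 8247, 5987, 7275, 4452 and 13655 in Tuft (log2 fold change -0.43 ± 0.34, adjusted p = 0.368). Medians of this size are to be read beside the -0.18 of all genes with a mean of at least 50. Among those genes 7.68% were lower and 10.3% higher at an unadjusted p below 0.05.

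**Figure D5:**
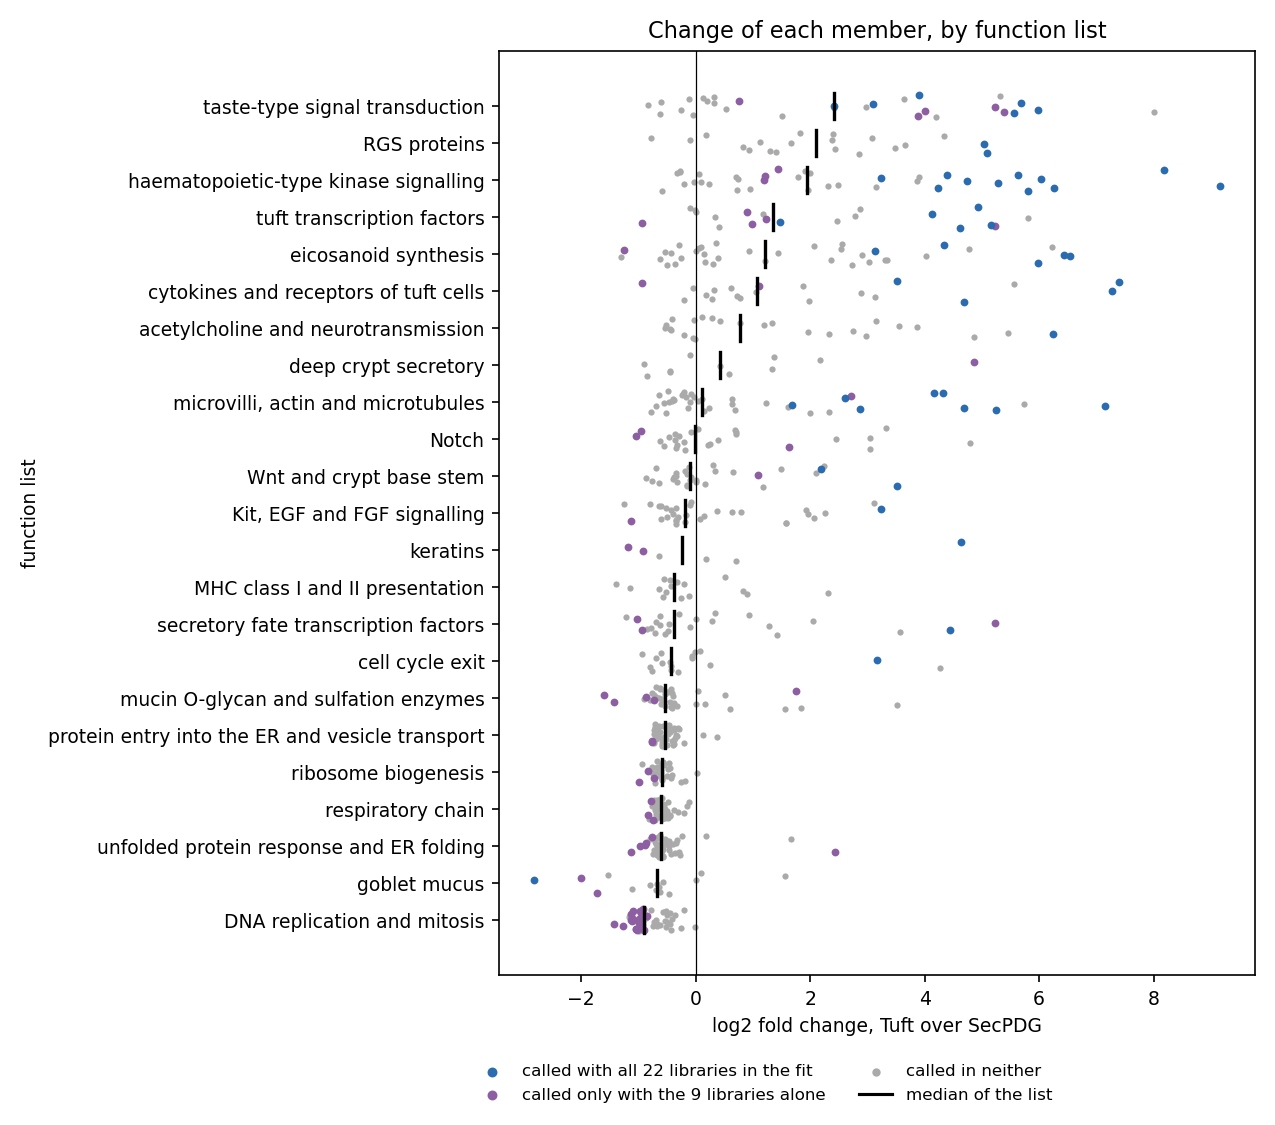
Log2 fold change, Tuft over SecPDG, of each tested member of the 23 function lists, ordered by the list's median (black line). Blue points were called with all 22 libraries in the fit, purple points with the 9 libraries alone, and grey points in neither. The taste-type, RGS, kinase and tuft factor lists spread to the right, and the replication and mitosis list lies wholly at or below 0.

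Outside the lists, 149 of the 197 called genes belonged to no function list. Of the 8 that fell, 2 enzymes remain to be described. Hsd11b2, which inactivates glucocorticoids and so leaves the mineralocorticoid receptor to aldosterone, was at 19630, 23873, 17885 and 15697 in SecPDG and 5334, 5791, 4982, 3951 and 5870 in Tuft, 3.72-fold lower (log2 fold change -1.89 ± 0.41, adjusted p = 0.00585). Its call was lost when any 1 library other than SecPDG replicate 2 was left out. Anpep, the membrane aminopeptidase N, was at 4121, 5393, 3732 and 3623 in SecPDG and 702, 1731, 1064, 1225 and 1906 in Tuft, 3.18-fold lower (log2 fold change -1.67 ± 0.32, adjusted p = 0.00185). That call was lost without Tuft replicate 1 or 3. The most counted features were shared. Rn45s, the ribosomal RNA precursor, was at 1050173, 1264092, 935530 and 801332 in SecPDG and 1395670, 529382, 1092393, 474351 and 542087 in Tuft (log2 fold change -0.33 ± 0.81, adjusted p = 0.793). Malat1, a nuclear long noncoding RNA, was at 15913, 42416, 20667 and 65330 in SecPDG and 76720, 65958, 71518, 180711 and 116443 in Tuft (adjusted p = 0.0947). It was higher in every Tuft library and passed with the 9 libraries alone (adjusted p = 0.00757). Rpph1, the RNA of ribonuclease P, was at 61117, 340521, 87426 and 271774 in SecPDG and 29805, 75220, 61364, 77146 and 163436 in Tuft (log2 fold change -1.22 ± 0.67, adjusted p = 0.204). Muc2, Fcgbp and Clca1 were the other members of the 5 most counted genes in each population.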

How the data were processed

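RNA of sorted cells was amplified with a low input kit (Clontech Pico) from 1 ng and sequenced as 100 bp paired ends. The authors aligned reads with STAR 2.5.2a to mm10 and deposited a whole-number read count per gene and library from HTSeq 0.6.1p1, counted without strand, so reads from overlapping antisense genes cannot be told apart. Rows for reads on no gene were kept out of library sizes.

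Counts of the 22 libraries were fitted in R 4.3.3 with edgeR 4.0.16 (filterByExpr, TMM, quasi-likelihood F test, cell type as the only term). Calls needed an adjusted p (Benjamini-Hochberg) below 0.01 and a mean of at least 50 normalised counts over the 9 libraries. A fit of those 9 alone, DESeq2 1.42.0, other scalings, filters, thinning to 9930648 counts and left-out libraries were alternatives. The study describes its replicates as independent mice, or sets of pooled mice, and independent sorts. Intervals and floors cover counting error only.

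Genes were named by a rule: the 12 largest rises and the 12 largest falls (8 existed) among called genes without overlap, the 3 largest called rises and falls of each function list with its most counted member not called, the sorting antigens and the tuft and goblet markers, and the 5 most counted genes of each population. A few genes under this rule are not reported here. Genes called with the 9 libraries alone, and others named for their role, were chosen after their values were seen. The members, lists and tests were chosen with earlier results of these data known. The fits were tested on simulated counts of all 22 libraries, with the same spread for every gene. Of 100 genes changed 2-fold and 100 changed 4-fold in Tuft, edgeR called 15% and 99%, and DESeq2 25% and 98%. False calls were 0 with edgeR and 5 with DESeq2. Of 24421 genes, 1087 matched no symbol of the GENCODE annotation of GRCm38, from which gene positions come. Promoters are from RefSeq (GRCm38.p6). Figures were drawn with matplotlib 3.10.9.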

Additional observations from a re-analysis of the deposited data

Results flagged for a closer look

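In 181 groups of 4 or 5 libraries, 28 had 1 library whose gap to the others passed Dixon's critical value. Chance gives this in about 1 of 20 groups of independent, normally distributed values. Normalised counts of many genes in the same libraries need not meet this, so the rate is a rough guide. Where all other libraries stood at 0, as for Rac2, Srpx2, Trim38 and Tm4sf1 in SecPDG, any count was flagged. SecPDG replicate 2 was the library that stood apart 12 times and Tuft replicate 5 did so 8 times. Values are the flagged library's normalised count against the range of the others of its group.

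SecPDG replicate 2 was highest for the mucus genes Fcgbp at 912524 against 205832 to 262342 and Clca1 at 856191 against 53997 to 155441, for the goblet factor Spdef at 7246 against 6024 to 6188, and for B4galnt2 at 51275 against 26152 to 29341, Pla2g4c at 18594 against 764 to 2074, Cdhr5 at 17737 against 7072 to 8431 and Gnb1 at 6676 against 5388 to 5592. It was also highest for tuft-high genes at low level, Dnah5 at 49.7 against 11.8 to 17.7, and for 3 genes at 0 in the other SecPDG libraries, Rac2 at 7.46, Srpx2 at 8.7 and Trim38 at 8.7. Its sum of enteroendocrine markers was lowest, at 1987 against 5432 to 5985.

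Tuft replicate 5 was highest for genes more abundant in SecPDG: Zg16 at 1316 against 549.8 to 769, Calr at 41329 against 19230 to 22077, Ncl at 20202 against 10360 to 10873, Atp5a1 at 24238 against 14600 to 17197, Epcam at 29666 against 14463 to 17363 and Agr2 at 102306 against 33286 to 44995. Its sum of enteroendocrine markers was highest, at 28206 against 1702 to 4648, and its sum of endothelial markers lowest, at 231 against 644 to 715.

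Single values stood apart in other libraries. SecPDG replicate 3 had Cd300lf at 80.03 against 11.2 to 17.6, Avil at 378 against 241 to 261, Tm4sf1 at 2.53 with the others at 0, and the lowest Msi1, 34.5 against 111 to 125. SecPDG replicate 1 was lowest for Mki67 at 22163 against 26585 to 27178 and Ptpn6 at 234 against 489 to 541. Tuft replicate 4 was highest for Rgs22 at 2142 against 389 to 718 and Chat at 1456 against 356 to 635.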

How the results depend on the processing

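Of 197 genes called, 189 were higher in Tuft (95.9%, exact 95% interval 92.2 to 97.9%). That interval treats called genes as independent, and does not measure the spread between libraries or settings. DESeq2 called 1056, 897 higher and 159 lower (84.9% higher), and shared 194 with edgeR. The 9 libraries alone gave 553 called, 305 higher and 248 lower (55.2%), of which 173 were shared. Library totals gave 315 called, 310 higher and 5 lower (98.4%), and an adjusted p below 0.05 gave 574 called, 486 higher and 88 lower (84.7%). The number lower was 15 with DESeq2's size factors, 15 with upper quartile scaling, 24 with no filter (87.2% higher) and 25 after thinning (89.1%). Without SecPDG replicate 2 and Tuft replicate 5, an alternative chosen after seeing the data, there were 277 called, 218 higher and 59 lower (78.7%). With 1 library left out at a time, 119 to 221 were called, 113 to 204 higher and 1 to 17 lower (92.3 to 99.3% higher). The cause of these differences was not tested.

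Replicate numbers are shared between groups. Deviations of same-numbered libraries correlated at 0.04, 0.25, -0.02 and 0.11 across genes, so the numbers were not taken as pairs, and not every SecPDG library correlated best with its own number. With the number as a replicate block, 234 genes were called, 180 higher and 54 lower (76.9% higher).

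Over the 79 genes named by rule and all alternatives, 0 called values changed direction, 65 of 1817 comparisons lost a call and 24 gained one. Goblet transcripts were abundant in both gates, and background on low-count genes was higher in Tuft; the part of either in small differences was not tested. Precision is limited by the 4 and 5 libraries, and the smallest of the 9 held 9930648 counts on genes.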

Other observations

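The other sorted populations place both groups on a wider scale, given here as levels with no test. Tuft markers summed to 118 ± 33.1 in Stem (SD, n = 3), 183 ± 40.5 in AbsPro (n = 3), 1132 ± 275 in SecPDG (n = 4), 57047 ± 19244 in Tuft (n = 5), 842 ± 293 in Ent (n = 5) and 8171 ± 4575 in EEC (n = 2), so that enteroendocrine libraries came next to Tuft and the stem and absorptive progenitor (AbsPro) libraries had the least. The haematopoietic-type kinase list summed to 12731 ± 667 in Stem (SD, n = 3), 13471 ± 566 in AbsPro (n = 3), 14815 ± 1366 in SecPDG (n = 4), 65830 ± 20558 in Tuft (n = 5), 12322 ± 1839 in Ent (n = 5) and 20051 ± 6448 in EEC (n = 2). Genes of replication and mitosis summed to 104046 ± 13076 in Stem (SD, n = 3), 69184 ± 5382 in AbsPro (n = 3), 96426 ± 11698 in SecPDG (n = 4), 49911 ± 13141 in Tuft (n = 5), 19168 ± 7732 in Ent (n = 5) and 10184 ± 4658 in EEC (n = 2), which places Tuft below the SecPDG, Stem and AbsPro means and above Ent and EEC. Genes of ER folding summed to 119938 ± 8421 in Stem (SD, n = 3), 160274 ± 20644 in AbsPro (n = 3), 380606 ± 69108 in SecPDG (n = 4), 240918 ± 66020 in Tuft (n = 5), 96336 ± 42556 in Ent (n = 5) and 61016 ± 34414 in EEC (n = 2), so that the Tuft mean, lower than that of SecPDG, was above that of the remaining populations.

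Single genes differed in where else they were found. Zg16, lower in Tuft than in SecPDG, averaged 15392 ± 2631 in Ent (SD, n = 5) and 7611 ± 4507 in AbsPro (n = 3), above SecPDG at 5591 ± 519 (n = 4). St18 averaged 1572 ± 880.1 in EEC (n = 2) beside 2198 ± 881 in Tuft (n = 5), and Cdkn1c 726 ± 173 beside 1398 ± 468. Hsd11b2 averaged 19271 ± 3464 in SecPDG and 5500.1 ± 1382 in AbsPro, beside 5186 ± 778 in Tuft.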
